A study of Mus musculus with 18 samples.

Results

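The 10 genes described here are Ltf, Ngp, Camp, Lcn2, Mmp8, Hp, Mmp9, S100a8, S100a9 and Ly6g, a fixed list of neutrophil genes named for the secondary and tertiary granules. They were picked by symbol from 12679 genes in the table for p53WT leukemia at 10 h, 12861 in that for p53null leukemia at 10 h and 12838 in that for p53WT leukemia at 72 h. All 10 were present in all 3 tables. RNA was sequenced from mouse acute myeloid leukemia (AML) driven by MLL/ENL and Nras, in 18 samples that form 6 groups of 3. The groups are p53WT AML given CX-5461 or vehicle for 10 h, p53null AML given CX-5461 or vehicle for 10 h, and p53WT AML given CX-5461 or vehicle for 72 h. CX-5461 is an inhibitor of RNA polymerase I, and the study asked how it acts on MLL-driven AML. The leukemia cells of every group had been passed into syngeneic C57BL/6 recipients, treatment began in mice with established disease, and GFP-positive tumour cells were sorted from bone marrow. No age of the recipients, no count of animals and no makeup of the vehicle is given in the sources used here, so p-values measure the spread between samples, which may be technical. The titles of p53WT and p53null samples at 10 h carry different tags of unstated meaning, so genotype and whatever the tags mark cannot be told apart. The titles of p53WT samples at 72 h carry neither tag, so time and whatever the tags mark cannot be told apart either.

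Neutrophils load their granules in a fixed order as they mature. Primary granules with myeloperoxidase and elastase are filled in promyelocytes, secondary (specific) granules with lactoferrin and lipocalin in myelocytes and metamyelocytes, and tertiary (gelatinase) granules with Mmp9 after that. Transcription of the secondary granule genes depends on C/EBP epsilon, and their RNA is a mark of granulocytes from the myelocyte stage on. Of the 10 genes, Ltf, Ngp, Camp, Lcn2, Mmp8 and Hp encode proteins of secondary granules and Mmp9 a protein of tertiary granules. S100a8 and S100a9 encode the subunits of calprotectin, which lies in the cytosol, and Ly6g a surface antigen of mouse neutrophils, so that 3 of the 10 are maturation genes without a granule product.

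Counts for single libraries exist for p53WT AML at 10 h, 3 CX-5461 and 3 vehicle libraries, each numbered 1 to 3 by its column. CX libraries held 21578685 to 37244725 counts and vehicle libraries 22090394 to 48118513. Levels are given as CPM, counts scaled to a common library size with TMM factors, and a gene was called when its Benjamini-Hochberg adjusted p over all 12679 genes was under 0.05 in the edgeR quasi-likelihood test, two-sided, with 3 libraries per group. The vehicle libraries stood apart from one another, with vehicle library 3 nearest to the CX libraries and vehicle library 2 farthest from them for most of the 10 genes. Levels of 9 genes of AML and stem-like cells (Hoxa9, Hoxa10, Meis1, Kit, Flt3, Cd34, Myb, Myc and Mef2c) were read in the sorted cells. With no unsorted or normal marrow among the groups, these levels cannot check the sort. All 9 were measured, at a summed level of 2303 to 2630 CPM in CX libraries and 1724 to 2106 CPM in vehicle libraries. Myb made up most of this level, at a mean of 1682 CPM with CX-5461 and 1286 CPM with vehicle. None of the 9 passed the edgeR quasi-likelihood test at 10 h, with 2 lower and 2 higher at an unadjusted p under 0.05 and 1 lower and 2 higher by DESeq2. Those with the smallest p were Myb (log2 fold change 0.39), Flt3 (-2.19) and Myc (0.32). Flt3 was near the floor, at a mean of 0.755 CPM with CX-5461 against 3.04, 6.94 and 0.671 CPM in vehicle libraries 1, 2 and 3, and its groups overlapped. Of the 9 genes, 1 was called higher without vehicle library 1, and 1 each way without vehicle library 3.

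At 10 h, p53WT AML given CX-5461 held less RNA of 7 of the 10 genes than vehicle AML, at 2.69 to 11.3 times lower levels. Of all genes tested, 4.32% were called lower and 3.78% higher, and none of the 10 was higher. The 7 were Ltf, Ngp, Camp, Lcn2, S100a8, S100a9 and Ly6g. Mmp8 and Mmp9 had values of the same direction and did not pass the test, and Hp had nearly the same level in both groups. Every CX library lay below every vehicle library for the same 7 genes, an ordering that 19.1% of all genes showed, while 19.9% had every CX library above every vehicle library. The median log2 fold change of the 10, CX-5461 over vehicle, was -1.96, beside 0.00 over all genes tested. In sorted bulk cells, fewer cells with granule RNA and less granule RNA per cell cannot be told apart.

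Ngp and Camp are secondary granule genes of the cathelicidin family, in which Camp is the precursor of an antimicrobial peptide. Ngp (ENSMUSG00000032484) had 361, 535 and 389 CPM in CX libraries 1, 2 and 3, against 1673, 3176 and 1121 CPM in vehicle libraries 1, 2 and 3. The CX values lay close together and the highest was less than the lowest vehicle value. Ngp averaged 428 ± 93.2 CPM with CX-5461 and 1990 ± 1063 CPM with vehicle (SD, n = 3 each), a log2 fold change of -2.22 (SE 0.377, edgeR quasi-likelihood, adjusted p 0.0323). Camp (ENSMUSG00000038357) had 201, 287 and 199.9 CPM in the CX libraries, against 576, 1537 and 624 CPM in the vehicle libraries. Its vehicle library 2 was far above the other vehicle libraries, and the groups did not overlap. The log2 fold change of Camp was -1.99 (SE 0.395, edgeR quasi-likelihood, adjusted p 0.0386), and was -1.39 without vehicle library 2, a fold more than 1.5 times smaller.

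Ltf encodes lactoferrin, an iron-binding protein, and Lcn2 a lipocalin that binds bacterial siderophores. Ltf (ENSMUSG00000032496) had 119, 146 and 127 CPM in CX libraries 1, 2 and 3, against 1028, 981 and 265 CPM in vehicle libraries 1, 2 and 3. Here vehicle library 3 was the low one, though still above each CX library. Ltf fell 5.81-fold (log2 fold change -2.54, SE 0.472, edgeR quasi-likelihood adjusted p 0.0361), so that the gene ranked 132 by CPM among all genes in vehicle libraries ranked 1826 in CX libraries. Lcn2 (ENSMUSG00000026822) had 276, 338 and 254 CPM in the CX libraries, against 726, 1108 and 502 CPM in the vehicle libraries. The groups did not overlap, and its fall, 2.69-fold, was the least among the 7 genes called (log2 fold change -1.43, SE 0.274, edgeR quasi-likelihood adjusted p 0.0364).

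Mmp8 encodes neutrophil collagenase of the secondary granules, and Mmp9 encodes gelatinase B, for which the tertiary granules are named. Mmp8 (ENSMUSG00000005800) had 23.8, 25.1 and 36.4 CPM in CX libraries 1, 2 and 3, against 169, 186 and 35.4 CPM in vehicle libraries 1, 2 and 3. Vehicle library 3 lay within the range of the CX libraries, while the other vehicle libraries were far above it. Its log2 fold change was -2.20 (SE 0.567, edgeR quasi-likelihood, adjusted p 0.0560). Mmp9 (ENSMUSG00000017737) had 99.1, 116 and 87.3 CPM in the CX libraries, against 374, 481 and 113 CPM in the vehicle libraries. Again vehicle library 3 overlapped the CX libraries, and the log2 fold change was -1.68 (SE 0.468, edgeR quasi-likelihood adjusted p 0.0655). Without vehicle library 3 both matrix metalloproteinase genes were called lower, with log2 fold changes of -2.65 for Mmp8 and -2.08 for Mmp9 (edgeR quasi-likelihood, adjusted p 0.0019 for Mmp8, 0.0022 for Mmp9).

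Hp, which encodes the hemoglobin-binding haptoglobin, stood apart from the other genes. Per kilobase of exon, Hp (ENSMUSG00000031722) had 644, 682 and 663 CPM in CX libraries 1, 2 and 3, against 623, 747 and 713 CPM in vehicle libraries 1, 2 and 3. The groups overlapped, and the vehicle libraries, which lay wide apart in the other 9 genes, were close to each other here. Its coefficient of variation was 2.81% over CX libraries and 9.24% over vehicle libraries, whereas the other 9 genes had 10.8% to 24.5% over CX libraries and 39.3% to 64.4% over vehicle libraries. The log2 fold change of Hp was -0.07 (SE 0.0781, edgeR quasi-likelihood adjusted p 0.595).

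The calprotectin genes had the highest levels per kilobase of the 10 in both groups. S100a9 (ENSMUSG00000056071) had 992, 1400 and 945 CPM in CX libraries 1, 2 and 3, against 3378, 6819 and 2551 CPM in vehicle libraries 1, 2 and 3, and ranked 65 by CPM among all genes with CX-5461 and 6 with vehicle. S100a8 (ENSMUSG00000056054) had 821, 1090 and 764 CPM in the CX libraries, against 2139, 4290 and 1759 CPM in the vehicle libraries. Neither gene overlapped between groups, and vehicle library 2 was the highest for both. Log2 fold changes were -1.93 (SE 0.368) for S100a9 and -1.61 (SE 0.336) for S100a8 (edgeR quasi-likelihood, adjusted p 0.0364 for S100a9, 0.0408 for S100a8). Per kilobase of exon, the ratio of S100a9 to S100a8 was 1.61, 1.71 and 1.64 in CX libraries 1, 2 and 3, against 2.10, 2.11 and 1.93 in vehicle libraries 1, 2 and 3. The ratio was thus lower in each CX library than in any vehicle library, a description chosen after its values were seen and not tested.

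Ly6g had the lowest level per kilobase and the largest fold change of the 10. It (ENSMUSG00000022582) had 1.03, 1.19 and 1.40 CPM in CX libraries 1, 2 and 3, against 18.1, 18.7 and 3.45 CPM in vehicle libraries 1, 2 and 3. The groups did not overlap, vehicle libraries 1 and 2 were nearly equal, and vehicle library 3 was the low one as for Ltf. Ly6g fell 11.3-fold (log2 fold change -3.49, SE 0.633, edgeR quasi-likelihood adjusted p 0.0345), which ranked 42 among all 12679 genes from the lowest fold change. Ly6g lies among related Ly6 genes, and the sources used here do not say how reads shared between them were counted, so its level is uncertain.

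**Figure D1:**
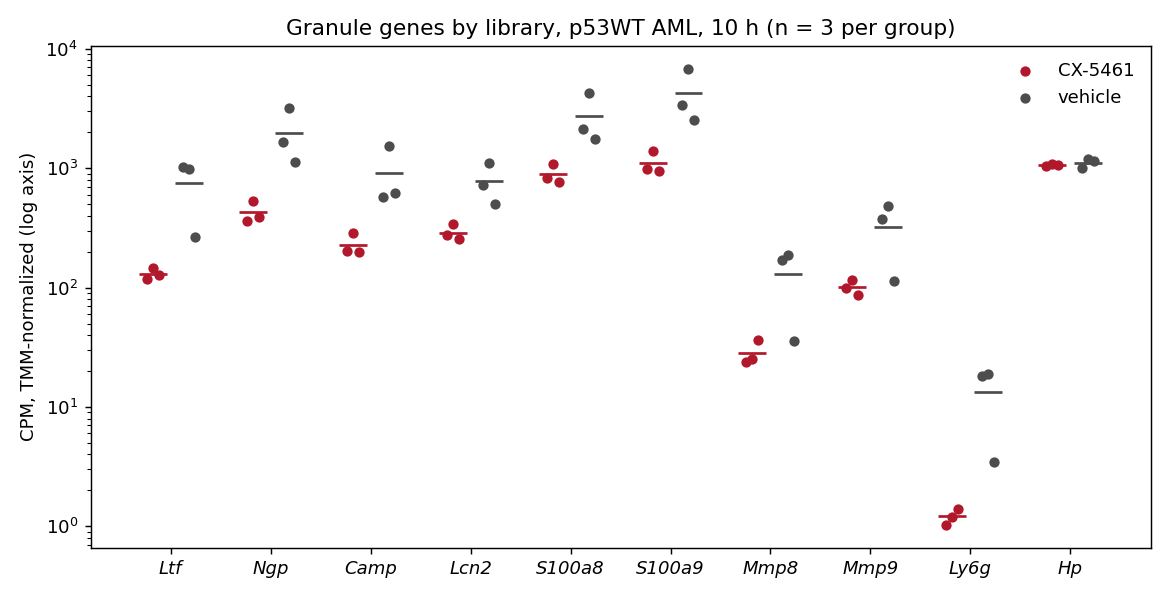
Level of each of the 10 genes in every library of p53WT AML at 10 h, in TMM-normalized CPM on a log axis. Points are single libraries, CX-5461 left of vehicle, and bars are means of 3. Groups overlap for Mmp8, Mmp9 and Hp and are apart for the other 7 genes.

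Set per kilobase of exon, so that genes can be ranked by level, the order with CX-5461 was S100a9 (2131 ± 480 CPM per kb), S100a8 (1285 ± 251), Hp (663 ± 18.6), Ngp (351 ± 76.3), Camp (303 ± 65.8), Lcn2 (110 ± 16.7), Ltf (37.9 ± 4.08), Mmp9 (28.5 ± 4.12), Mmp8 (11.7 ± 2.87) and Ly6g (1.28 ± 0.200; SD, n = 3). With vehicle it was S100a9 (8140 ± 4336 CPM per kb), S100a8 (3932 ± 1967), Ngp (1629 ± 870), Camp (1204 ± 714), Hp (694 ± 64.1), Lcn2 (297 ± 117), Ltf (219.7 ± 124), Mmp9 (91.2 ± 53.5), Mmp8 (53.7 ± 34.05) and Ly6g (14.2 ± 9.17; SD, n = 3). Hp moved to the third place with CX-5461, against the fifth place with vehicle, with a level per kilobase that barely differed. With CX-5461, Ngp and Camp were the only neighbours in this order whose libraries overlapped. With vehicle all neighbours overlapped except Camp and Hp, and Hp and Lcn2. The 10 genes together took 0.393%, 0.503% and 0.387% of normalized counts in CX libraries 1, 2 and 3, against 1.11%, 1.98% and 0.812% in vehicle libraries 1, 2 and 3.

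The calls depended on which library was left out, among the 10 and over all genes. Of all genes tested, 1, 0 and 0 were called lower without CX library 1, 2 or 3. Leaving out CX library 1, 2 or 3 gave no call among the 10 in the edgeR quasi-likelihood test. The lowest Benjamini-Hochberg adjusted p of the 10 in that test was 0.169, 0.149 and 0.119. All 10 log2 fold changes stayed negative, and 9 of the 10 genes were lower at an unadjusted p under 0.05 each time. The share of all genes past that unadjusted p was not counted, so these 9 cannot be set beside it. Leaving out vehicle library 1, 2 or 3 gave 7, 7 and 9 of the 10 genes called lower, beside 861, 665 and 840 of all genes. Against each vehicle library in turn, the mean log2 CPM of the CX libraries was lower for all 9 genes other than Hp. The median difference over these 9 was -1.90 against vehicle library 1, -2.74 against vehicle library 2 and -1.03 against vehicle library 3.

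**Figure D2:**
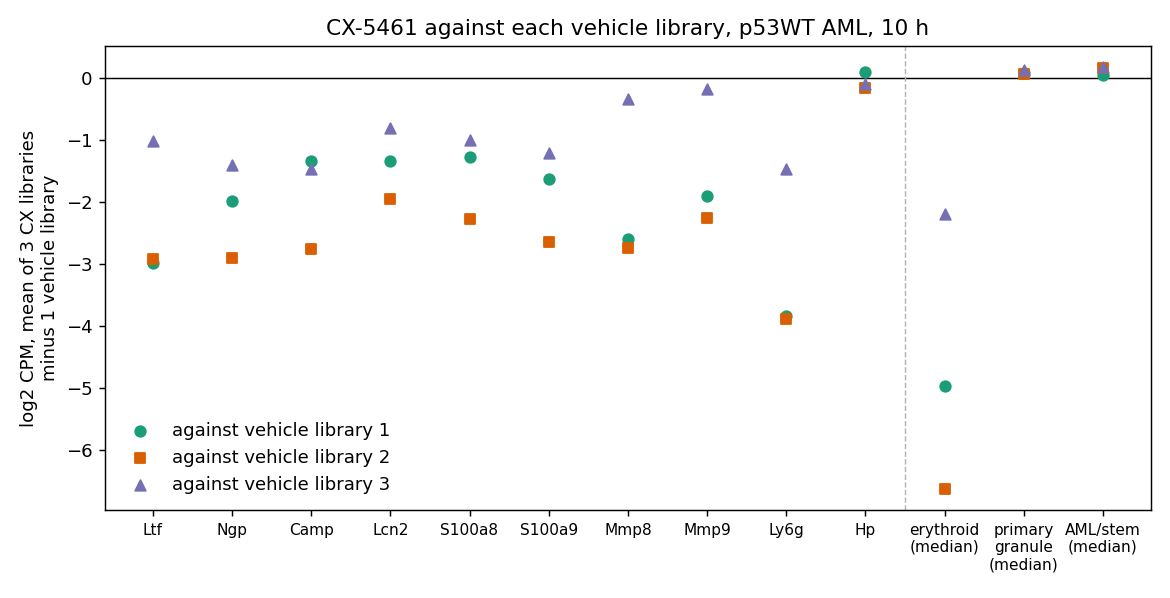
Mean log2 CPM of the 3 CX libraries minus the log2 CPM of each vehicle library, p53WT AML at 10 h. Shown are the 10 genes and, right of the dashed line, the medians of 3 gene lists. Vehicle library 3 gives the smallest differences for most genes, -0.34 for Mmp8 and -0.18 for Mmp9, and the erythroid median runs from -2.20 to -6.62.

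Erythroid transcripts were lower in the same CX libraries, although the cells had been sorted as GFP-positive tumour cells, a gate meant to leave out other marrow cells. Of 18 listed erythroid genes 17 were measured, and all 17 had a negative log2 fold change at a median of -5.55. With CX-5461, 10 of the 17 fell in the edgeR quasi-likelihood test, where 4.32% of all genes did. DESeq2 and the edgeR exact test each called 16 of the 17 lower, and limma-voom and robust estimation each called 0. Their summed level was 478 to 690 CPM in CX libraries, against 6025, 20134 and 803 CPM in vehicle libraries 1, 2 and 3. Vehicle library 2 was thus the highest and vehicle library 3 the lowest, as for Ngp, Lcn2, S100a8, S100a9, Mmp8, Mmp9 and Ly6g. Ltf, Camp and Hp had another order. Within the erythroid sum, Tfrc alone had 226, 233 and 230 CPM in CX libraries 1, 2 and 3, against 226, 320 and 156 CPM in vehicle libraries 1, 2 and 3. The sum in CX libraries and in vehicle library 3 thus holds a large part from this gene, whose log2 fold change was -0.03. Slc4a1, the anion exchanger gene of red cells, was found at 3.61, 2.52 and 5.83 CPM in CX libraries 1, 2 and 3, against 227, 755 and 27.2 CPM in vehicle libraries 1, 2 and 3. Slc4a1, the Rh-associated gene Rhag and the spectrin gene Sptb had the smallest p among erythroid genes, with log2 fold changes of -6.40, -6.21 and -5.55. Rhag was near the floor with CX-5461, at a mean of 0.235 CPM against 18.7 CPM with vehicle, so the size of its fold is uncertain. Leaving out CX library 1, 2 or 3 gave no erythroid call, and leaving out vehicle library 3 gave 16. The source of these transcripts and their part in the result on the 10 genes were not tested.

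Markers of further cell types had mostly negative values and few calls in short lists, where 4.32% of all genes were called lower and 3.78% higher. Of 14 monocyte and macrophage genes measured, 12 were negative at a median log2 fold change of -0.56, 2 fell in the edgeR quasi-likelihood test and 8 were lower by DESeq2. The chemokine receptor gene Ccr2 (-0.74) and the complement gene C1qa (-2.79) fell, and C1qb (-2.21) did not pass. Levels of C1qa and C1qb were low, at means of 0.914 and 1.71 CPM with CX-5461 and 6.48 and 8.07 CPM with vehicle. The summed level of the 14, 2308 to 2674 CPM in CX libraries and 2251 to 2945 CPM in vehicle libraries, overlapped. Most of it was Ly6c2 and F13a1, at means of 1067 and 836 CPM with CX-5461 and 1094 and 739 CPM with vehicle. The sum thus says little about the other genes of the list. Without vehicle library 1, 2 or 3 there were 5, 4 and 5 monocyte and macrophage genes lower. Of the B and plasma cell genes 5 of 10 were measured, with Ms4a1, Ebf1 and Pax5 among those absent from the table, and all 5 were negative at a median of -1.82. Their summed level was 103 to 125 CPM in CX libraries and 157 to 556 CPM in vehicle libraries. Ighm, an immunoglobulin heavy chain gene, fell (log2 fold change -1.41), Igkc (-2.69) and Cd79a (-3.71) did not pass, and without vehicle library 3 there were 4 lower. For T and NK cells 2 of 10 were measured, with Cd3e, Cd4 and Cd8a among those absent, at a summed level of 91.7 to 93.1 CPM in CX libraries and 57.4 to 72.7 CPM in vehicle libraries. These went opposite ways, since Nkg7 rose (log2 fold change 0.51) and Cd3d was at -1.79, which did not pass the edgeR quasi-likelihood test and was called lower by DESeq2. Nkg7, at a mean of 91.7 CPM with CX-5461 and 64.3 CPM with vehicle, made up nearly all of their summed level.

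The remaining 3 marker lists, of megakaryocytes, of mast cells, basophils and eosinophils, and of stromal and endothelial cells, had no gene past the edgeR quasi-likelihood test. Past an unadjusted p of 0.05 were 2 of the mast cell list and 1 each of the others, and DESeq2 called 1 gene lower in each. All 3 megakaryocyte genes measured of 7 were negative, Itga2b at -2.26, Vwf at -0.76 and Gp9 at -0.67 on the log2 scale, with a summed level of 2.85 to 3.72 CPM in CX libraries and 4.16 to 13.6 CPM in vehicle libraries. Of 5 mast cell, basophil and eosinophil genes measured of 9, 4 were negative, with Prg2 at -2.19, Mcpt8 at -0.69 and Siglecf at 0.27. Their summed level was 94.5 to 109 CPM in CX libraries and 95.9 to 121 CPM in vehicle libraries. Most of it was Siglecf, at a mean of 87.9 CPM with CX-5461 and 73.0 CPM with vehicle. All 3 stromal and endothelial genes measured of 7 were negative, Cxcl12 at -1.15, Col1a1 at -0.67 and Pecam1 at -0.07, with a summed level of 82.7 to 84.5 CPM in CX libraries and 85.9 to 100.2 CPM in vehicle libraries. Pecam1 made up most of this level, at a mean of 79.5 CPM with CX-5461 and 83.1 CPM with vehicle. Without vehicle library 3, 1 megakaryocyte gene and 2 mast cell genes were lower and 1 mast cell gene higher. The part of all these cells in the result on the 10 genes was not tested.

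The wider granule program was read from lists chosen by function, with earlier results of these data known. Of 27 other genes of secondary and tertiary granules 25 were measured, and all 25 had a negative log2 fold change at a median of -0.84. In the edgeR quasi-likelihood test 9 of the 25 fell, where 4.32% of all genes did. Hvcn1, a proton channel gene, fell to 104 ± 2.83 CPM with CX-5461, against 152 ± 19.3 CPM with vehicle (SD, n = 3 each). The protease gene Mmp25 fell to 6.88 ± 0.239 CPM with CX-5461, against 26.5 ± 12.4 CPM with vehicle, and Wfdc21 to 24.7 ± 2.10 CPM, against 78.2 ± 34.5 CPM. The adjusted p of edgeR was 0.0325 for Hvcn1 and 0.0338 for both Mmp25 and Wfdc21. Without CX library 1, 2 or 3 no gene of this list, nor of any other list used here, passed, and without vehicle library 1, 2 or 3 there were 13, 10 and 13 lower.

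Genes of mature neutrophil surface and cytosol were lower too, with 9 of 21 called, all 21 values negative and a median log2 fold change of -1.12. The receptor gene for G-CSF, Csf3r, had 232, 224 and 215 CPM in CX libraries 1, 2 and 3, against 294, 308 and 299 CPM in vehicle libraries 1, 2 and 3. This was a small change in tight groups (log2 fold change -0.42, SE 0.0484). The chemokine receptor gene Cxcr2 changed by -2.26 and the integrin gene Itgb2l by -1.77 on the log2 scale. The edgeR quasi-likelihood adjusted p were 0.0136 for Csf3r, 0.0364 for Cxcr2 and 0.0360 for Itgb2l. Without CX library 1, 2 or 3 none of the 21 was called, and without vehicle library 1, 2 or 3 there were 8, 9 and 12.

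Primary granule genes, whose products are stored earlier in maturation, had few calls. Over all genes, 4.32% were called lower and 3.78% higher, so 1 call in a list of this length lies near that share. Of 14 measured, 1 fell, the ficolin gene Fcnb (27.3 ± 4.63 CPM with CX-5461 and 81.5 ± 33.8 CPM with vehicle, SD, n = 3 each), and 9 of 14 values were positive at a median of 0.06. The cathepsin G gene Ctsg (log2 fold change 0.41, SE 0.127) and the glucuronidase gene Gusb (0.21, SE 0.0579) did not pass (edgeR quasi-likelihood, adjusted p 0.0820 for Ctsg, 0.0622 for Gusb). Myeloperoxidase, Mpo, was at 7776 ± 135 CPM with CX-5461 and 6435 ± 1132 CPM with vehicle, and did not pass either. DESeq2 called 2 primary granule genes lower and 3 higher. The summed level of the 14 was 19804 to 20009 CPM in CX libraries and 15632 to 19298 CPM in vehicle libraries, without overlap. Fcnb lost its call when CX library 1, 2 or 3 was left out, and without vehicle library 1 the list had 3 genes lower and 3 higher. Among 12 granulocyte transcription factors, the retinoic acid receptor gene Rara fell to 7.89 ± 1.76 CPM with CX-5461, against 15.6 ± 4.17 CPM with vehicle (edgeR quasi-likelihood adjusted p 0.0490). Cebpd (-0.33) and Klf5 (-0.95) did not pass, nor did Cebpe, the factor of secondary granule genes, at 134 ± 2.16 CPM with CX-5461 and 178 ± 42.8 CPM with vehicle. Rara lost its call when any CX library or vehicle library 2 was left out, and without vehicle library 1 there were 3 factors lower. DESeq2 called 5 of the 12 factors lower.

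The genes whose log2 CPM over the 6 libraries was most like the mean of the 10 were Rnf144a, a ubiquitin ligase gene, Lrg1, the formyl peptide receptor gene Fpr2, Mmp25 and Anxa1, the gene of annexin A1. Likeness was the root mean square difference of centred profiles, which was 0.115, 0.121, 0.126, 0.129 and 0.165 log2 units for them in that order, beside a median of 0.994 over the 10157 genes compared. Rnf144a averaged 7.05 ± 0.495 CPM with CX-5461 and 23.2 ± 10.1 CPM with vehicle (SD, n = 3 each). Of the 5, Lrg1, Mmp25, Fpr2 and Anxa1 are also in the neutrophil lists above.

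The promoters of the secondary granule genes Ltf, Ngp, Lcn2 and Camp are shown because these genes moved together and C/EBP factors and PU.1 are known to act in granulocytes. Each window runs from 250 bases before to 50 bases after the start site, 5′ to 3′ on the strand of the gene, from RefSeq on GRCm38.p6, another build than the mm9 named for the tables. Capitals mark matches on either strand to TTGCNNAA, a form of the C/EBP site, and to GAGGAA, the core of the PU.1 site, which reads TTCCTC on the opposite strand. No 2 matches overlap in the windows shown.
Ltf, chr9:111019042-111019341, forward strand: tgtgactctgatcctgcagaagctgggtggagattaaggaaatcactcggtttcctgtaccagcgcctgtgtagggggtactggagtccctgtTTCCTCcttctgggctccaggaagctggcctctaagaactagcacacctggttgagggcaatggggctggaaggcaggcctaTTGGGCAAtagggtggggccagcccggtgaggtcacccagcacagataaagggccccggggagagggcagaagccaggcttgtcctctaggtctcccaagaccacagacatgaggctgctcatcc
Ngp, chr9:110419558-110419857, forward strand: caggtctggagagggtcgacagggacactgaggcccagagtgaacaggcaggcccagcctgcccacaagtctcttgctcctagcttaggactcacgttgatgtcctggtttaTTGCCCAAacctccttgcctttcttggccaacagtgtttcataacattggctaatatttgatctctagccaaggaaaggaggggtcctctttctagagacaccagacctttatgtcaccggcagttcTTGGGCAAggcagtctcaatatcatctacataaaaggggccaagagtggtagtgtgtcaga
Lcn2, chr2:32387690-32387989, reverse strand: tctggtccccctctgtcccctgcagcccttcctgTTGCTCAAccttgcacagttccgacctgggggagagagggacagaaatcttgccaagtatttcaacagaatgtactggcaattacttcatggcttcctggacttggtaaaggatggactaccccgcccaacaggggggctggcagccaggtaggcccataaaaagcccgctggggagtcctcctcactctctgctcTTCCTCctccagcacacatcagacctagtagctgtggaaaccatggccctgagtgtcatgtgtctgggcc
Camp, chr9:109849407-109849706, reverse strand: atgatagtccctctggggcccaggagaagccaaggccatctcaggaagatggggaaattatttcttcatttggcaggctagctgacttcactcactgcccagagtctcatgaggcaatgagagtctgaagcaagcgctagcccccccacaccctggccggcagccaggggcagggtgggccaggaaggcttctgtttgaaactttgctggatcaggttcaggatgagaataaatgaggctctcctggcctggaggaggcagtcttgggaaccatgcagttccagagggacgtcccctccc
In the Ltf window TTGGGCAA begins at -75 and TTCCTC at -157, counted in bases from the start site. The Ngp window holds TTGCCCAA at -138 and TTGGGCAA at -11, the Lcn2 window TTGCTCAA at -216 and TTCCTC at -20, and the Camp window neither motif.

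Windows were found for 8 of the 10 genes, all but Mmp9 and Hp. TTGCNNAA was in 6 of the 8, in Ltf, Ngp, Lcn2, S100a9, Mmp8 and 1 of the windows of Ly6g, and in 10.8% of 32851 windows of the same length. GAGGAA was in 5 of the 8, in Ltf, Lcn2, S100a8, Mmp8 and Ly6g, and in 28.3% of all windows. Counts of the 8 are by gene, and Ly6g, with more than 1 window, counted if any held a match. The shares over all windows are by single window, so the units differ. Camp, which fell at 10 h like Ngp, had no match, and S100a8 had GAGGAA matches only. These matches are letters in a window and not measured binding.

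At 72 h the direction was the opposite one. In the authors' deposited table for p53WT AML at 72 h, 9 of the 10 genes were higher with CX-5461 at an FDR under 0.05, where 16.1% of all 12838 genes were called higher, and Hp was lower, where 15.1% were. The median log2 fold change of the 10 was 1.12, beside -0.01 over all genes. No values per library were at hand for this table, so no SD or overlap can be given. The sign was taken to be CX-5461 over vehicle as in the table for 10 h, where 12641 of 12679 genes had the same sign in the authors' table and in the edgeR quasi-likelihood fit. The p53 targets Cdkn1a and Ccng1 were positive in the authors' deposited tables for p53WT AML at both times, Cdkn1a with 2.25 at 10 h and 1.70 at 72 h, and Ccng1 with 1.19 and 0.80.

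Among secondary granule genes at 72 h, the authors' deposited table gave Ltf a log2 fold change of 2.10 (FDR 2.47e-61), the third smallest p of the table. Ngp had 1.30 (FDR 2.02e-32), Lcn2 1.25 (FDR 4.24e-14), Mmp8 0.92 (FDR 9.47e-07) and Camp 0.85 (FDR 1.06e-15) in the authors' deposited table. Hp was at -0.21 there (FDR 0.0427), a change to 0.867 of vehicle. The tertiary granule gene Mmp9 was 3.68-fold higher (log2 fold change 1.88, FDR 3.09e-25 in the authors' deposited table). Mmp8 was at a mean of 26.3 CPM over the 72 h samples in the authors' deposited table.

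The calprotectin genes and Ly6g shared that direction at 72 h. S100a9 was 1.97-fold higher (log2 fold change 0.98, FDR 9.70e-16) and S100a8 1.81-fold higher (0.86, FDR 6.64e-14) in the authors' deposited table. Ly6g was 6.12-fold higher (2.61, FDR 3.31e-47), again the largest change of the 10, at a mean of 4.84 CPM in the authors' deposited table. Ly6g and Ltf thus had the largest changes of the 10 at both times, down at 10 h and up at 72 h.

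By the authors' FDR, Mmp8 and Mmp9 were also lower at 10 h in p53WT AML, with log2 fold changes of -2.20 (FDR 1.95e-05) and -1.68 (FDR 0.000178) in the authors' deposited table, so that 9 of the 10 genes were lower and none higher, where 6.83% of all genes were lower and 3.57% higher. Those 9 were lower at 10 h and higher at 72 h by the authors' FDR in both deposited tables for p53WT AML, and 3.81% of the 12277 genes in both tables were. With the calls of the edgeR quasi-likelihood test at 10 h, 7 of the 10 and 2.13% of all genes were lower at 10 h and higher at 72 h by the authors' deposited table. The difference between the times was not tested, since no counts are at hand for 72 h, and each time had its own vehicle samples. Sample titles also differ in form between the times, so time and whatever that marks cannot be told apart.

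**Figure D3:**
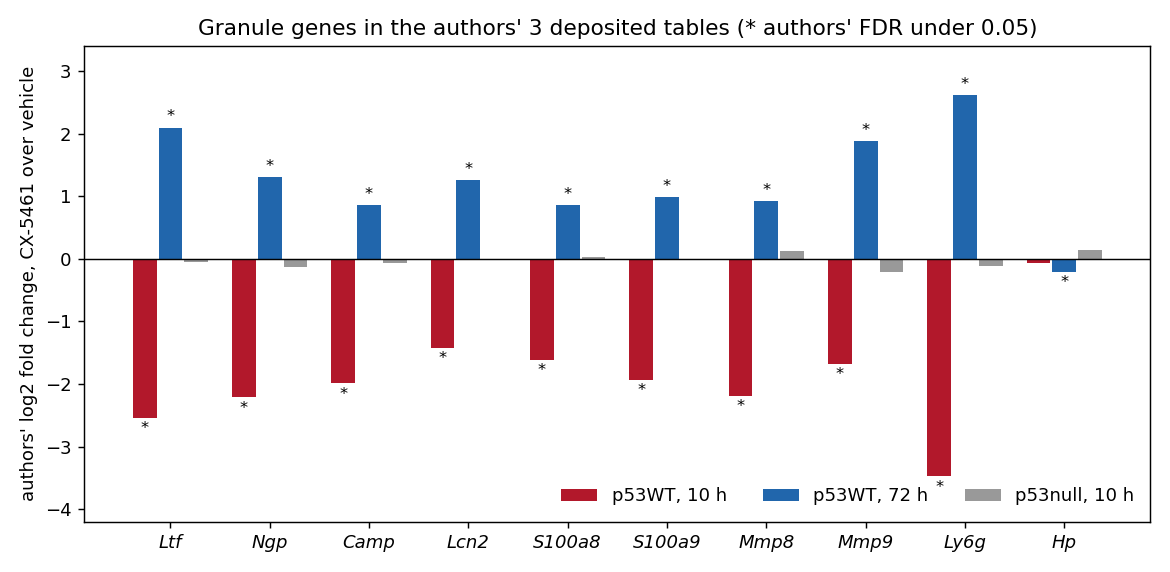
Authors' log2 fold change, CX-5461 over vehicle, of the 10 genes in the authors' 3 deposited tables. Bars start at 0, and a star marks an authors' FDR under 0.05. Of the 10 genes 9 point down in p53WT AML at 10 h and up at 72 h, and the bars of p53null AML lie between -0.22 and 0.13.

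In p53null AML at 10 h none of the 10 genes was called in the authors' deposited table, and none had an unadjusted p under 0.05, the lowest being 0.162 for Mmp9. Over all its 12861 genes, 0.0389% were called lower and 0.148% higher, so that few genes were called at all. Log2 fold changes of the 10 lay between -0.22 (Mmp9) and 0.13 (Hp) at a median of -0.04 in the authors' deposited table. Ltf was at -0.06, Ngp at -0.13, Camp at -0.07, Lcn2 at -0.02, Mmp8 at 0.12, S100a8 at 0.03, S100a9 at 0.00 and Ly6g at -0.11 in the authors' deposited table. Their RNA was present, with mean levels in the authors' deposited tables of 4770 CPM for S100a9 and 2036 CPM for Ngp in p53null AML at 10 h, beside 2673 and 1206 CPM in p53WT AML at 10 h. Hp had 402 CPM in p53null AML and 1087 CPM in p53WT AML at 10 h. These are the authors' means over both arms of separately normalized tables, and no difference of level or of response between the genotypes was tested. Of 18 erythroid genes 9 were in the p53null table, none of them called in the authors' deposited table. The sign of this table was also taken to be CX-5461 over vehicle, and nothing in it checks that, since Cdkn1a was at -0.03 and Ccng1 at 0.07 in the authors' deposited table, neither called.

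The counts of the other lists at 72 h stand beside all 12838 genes, of which 16.1% were called higher and 15.1% lower. Small counts, such as 1 of 4 genes, are not read as a result about a list. Of 25 other secondary and tertiary granule genes, 19 were higher and none lower in the authors' deposited table, at a median log2 fold change of 0.91. Among them Wfdc21 had 1.51, Mmp25 1.08 and Hvcn1 0.04 (FDR 0.759) in the authors' deposited table. Genes of neutrophil surface and cytosol had 16 of 21 higher and 2 lower in the authors' deposited table, with Cxcr2 at 0.93, Itgb2l at 1.18 and Csf3r at -0.19 (FDR 0.115). Primary granule genes went mostly the other way, 7 of 14 lower and 2 higher in the authors' deposited table, with Elane, the gene of neutrophil elastase, at -0.53 (FDR 1.10e-07), Mpo at -0.34 and Fcnb at 0.95. Of the 12 transcription factors 5 were higher and 4 lower in the authors' deposited table, with Rara at 0.65 and Cebpe at 0.31 (FDR 0.00818). The same table called 11 of 17 erythroid genes higher, with Slc4a1 at 1.35 and Rhag at 2.10, whereas the globin gene Hbb-bs was at -0.23 (FDR 0.749), and the part of these genes' source in the result at 72 h was not tested. It also called 7 of 15 monocyte genes higher and 3 lower, 2 of 6 B cell genes, 1 of 2 T and NK cell genes and 3 of 4 megakaryocyte genes higher, 6 of 8 mast cell, basophil and eosinophil genes higher and 1 lower, and 1 of 4 stromal and endothelial genes each way, and their part was not tested either. It called 1 of 9 AML and stem-like genes higher and 3 lower, with Myc at -0.77. Lower at 10 h and higher at 72 h by the authors' FDR were 15 of 25 other granule genes, 14 of 21 surface and cytosol genes, 1 of 14 primary granule genes and 10 of 17 erythroid genes in the authors' deposited tables. Of the 12277 genes measured in p53WT AML at both times, 3.81% were.

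**Figure D4:**
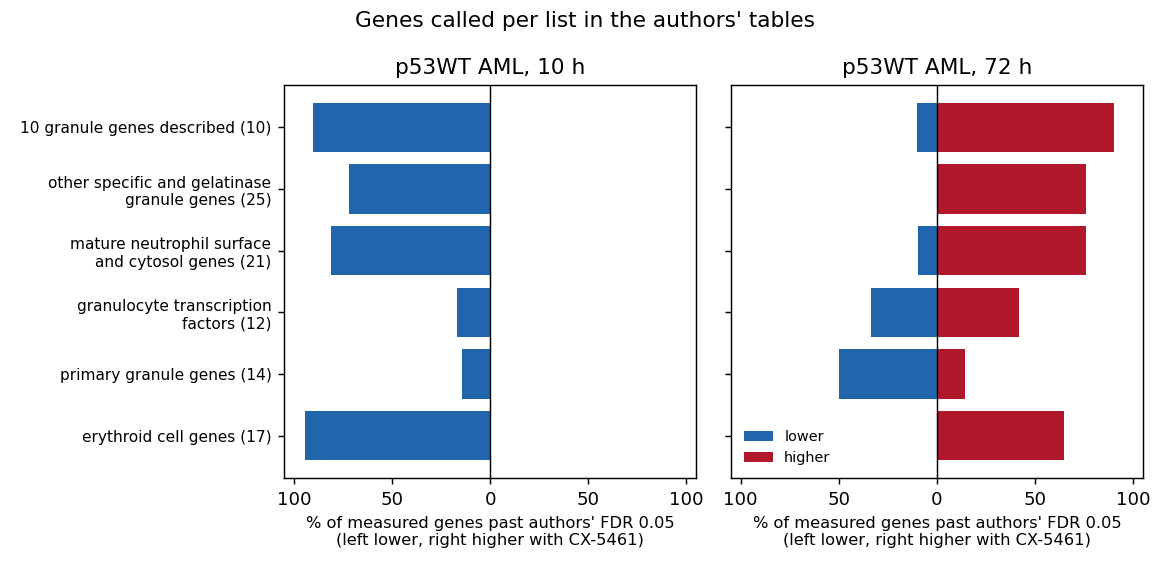
Percentage of the measured genes of each list past the authors' FDR of 0.05 in p53WT AML at 10 h (left panel) and 72 h (right panel), drawn left of 0 for lower and right of 0 for higher with CX-5461. Numbers in brackets are genes measured. Over all genes, 6.83% were lower and 3.57% higher at 10 h, and 15.1% were lower and 16.1% higher at 72 h. Secondary and tertiary granule genes and erythroid genes point left at 10 h and right at 72 h, and 7 of 14 primary granule genes are lower at 72 h.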

How the data were processed

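RNA came from sorted GFP-positive cells, and the library kit was TruSeq RNA v2, per the labels' protocols. Reads of a gene and its antisense partner were taken as not separable. CASAVA 1.8.2, Bowtie, HTSeq and edgeR and the mm9 build were used, per the submitters' processing notes, and those sources state neither settings nor the annotation. The authors deposited 3 tables with log2 fold changes, log2 mean CPM, p-values and FDR from edgeR, per the file headers. In addition, 6 columns of raw counts were deposited for p53WT AML at 10 h, named by arm and not by titled sample. How genes were chosen for the tables is not stated.

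Counts were TMM-normalized and tested with edgeR 4.0.16 (glmQLFit, glmQLFTest) in R 4.3.3, with treatment as the only term, 4 residual degrees of freedom and Benjamini-Hochberg adjustment over all genes. The script was tested on simulated data. SE is the size of the log2 fold change over the root of F, and log2 CPM used a prior count of 2. The other tables hold no counts, so no fit was made of them and the authors' values are given. Symbols were paired with 12237, 12366 and 12362 IDs of the tables for p53WT at 10 h, p53null at 10 h and p53WT at 72 h. Exon lengths are unions over GENCODE vM21 exons, which may differ from the annotation the authors used. Alternatives were RLE factors, library size alone, a mean of at least 5 CPM, DESeq2 1.42.0, the edgeR exact test, limma-voom (limma 3.58.1), robust estimation, a replicate block, each library left out and a threshold of 0.01.

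The 10 genes and all lists were chosen with earlier results of these data known. Named from each list were the 3 genes with the smallest p and any called against the list's majority, and other genes named were chosen after their values were seen. The profiles of likeness took genes with a symbol at a mean of at least 5 CPM.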

Additional observations from a re-analysis of the deposited data

How the results depend on the processing

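All 10 log2 fold changes at 10 h stayed negative under every alternative run. The genes called lower among the 10, 7 in all, numbered 2 with robust estimation, 0 at an adjusted p under 0.01, and 0 to 9 with 1 library left out. DESeq2 and the edgeR exact test each called 9 of the 10, limma-voom 6 and the replicate block 8.

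Over all genes, 548 were lower and 479 higher by the edgeR quasi-likelihood test. DESeq2 gave 1352 and 962, the edgeR exact test 1020 lower, limma-voom 330 lower, an adjusted p under 0.01 gave 2 and 25, and leaving out 1 library gave 0 to 861 lower and 23 to 817 higher, with 0 or 1 lower without a CX library. The other gene lists held 34 calls by that test. There DESeq2 made 78, the exact test 72, limma-voom 11, robust estimation 11, an adjusted p under 0.01 left 0, and leaving out 1 library gave 0 to 59. Limma-voom and robust estimation each called 0 of the erythroid, transcription factor, primary granule and B cell lists lower.

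At 72 h, an authors' FDR under 0.01 left 0 of the 10 lower, so that Hp was not called, against 1 at 0.05, and 9 higher.

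With the column number as a replicate block, 857 genes were lower, 679 higher, and 56 calls fell in the other lists. Same-numbered CX and vehicle libraries had deviations correlated at 0.301, 0.106 and 0.0274, CX library 3 correlated best with vehicle library 2, and the samples share only a number. The causes of these differences were not tested. With 3 libraries a group, the 7 genes called had adjusted p between 0.0323 and 0.0408, and Mmp8 and Mmp9, not called, 0.0560 and 0.0655 (edgeR quasi-likelihood).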
